A study of Mus musculus with 12 samples.

Results

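The 10 genes described here belong to the pathways that show peptides to T cells through the major histocompatibility complex (MHC). They were followed in the livers of mice given iron sulphate (FeSO4) and the synthetic glucocorticoid dexamethasone (DEX). They were taken from the gene table by symbol, 6 for the class I pathway (H2-K1, H2-D1, B2m, Tap1, Tap2 and Tapbp) and 4 for the class II pathway (H2-Aa, H2-Ab1, H2-Eb1 and Cd74). All 10 were found among the 55414 genes of the table and were among the 13857 genes tested. Bulk RNA of whole liver was sequenced from 12 C57Bl/6J mice, the genotype labelled for every group, which were females of 8 to 12 weeks. Of 4 groups of 3 mice, those named FeSO4/PBS and FeSO4/DEX first received 300 mg/kg FeSO4, whereas the NaCl/PBS and NaCl/DEX mice received 0.9% NaCl. The second injection, 6 h later, was 10 mg/kg DEX or PBS, and livers were taken 2 h after it, 8 h after the first. The comparisons asked what FeSO4 did, what DEX did, and whether the DEX response was kept under FeSO4.

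Class I molecules are built from a heavy chain (H2-K1, H2-D1) and the light chain beta-2-microglobulin (B2m), and show peptides from inside the cell on nearly all cells. The peptides are pumped into the endoplasmic reticulum by the transporter made of Tap1 and Tap2, to which tapasin (Tapbp) tethers the empty heavy chain. Class II molecules pair an alpha and a beta chain, as H2-Aa with H2-Ab1. H2-Eb1 encodes the beta chain of the E molecule. The alpha chain of the E molecule was not among the genes followed, and whether these mice make that molecule was not tested. Its RNA level is therefore not read as a level of E molecule. Class II molecules are escorted by the invariant chain Cd74. They are largely made by professional antigen-presenting cells, in liver the Kupffer cells, dendritic cells and B cells. In bulk liver, fewer cells of a type and less RNA per cell cannot be told apart.

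Between 16335651 and 23827340 reads per mouse were counted on genes, and 17493 to 18579 genes were detected. Levels are given as normalized counts, reads scaled with edgeR's TMM factors to 1 common library size. The factors were 1.14 to 1.16 in NaCl/PBS mice and 0.87 to 0.95 in the FeSO4 groups, so that scaling by library size alone moved the median LFC of all genes after FeSO4 from -0.02 to -0.34. The liver label was checked against 8 hepatocyte markers, of which 7 were matched by symbol. Albumin (Alb) lay between 1479644 and 2257686 normalized counts in every mouse.

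Levels per kb of mRNA divide by the length of the annotated canonical transcript, so genes can be compared on this scale only as far as that length holds. In the NaCl/PBS mice this level was highest for B2m, with a mean of 20604 normalized counts per kb and a range of 19785 to 21595. H2-K1 followed with 12573 (range 12000 to 13236) and H2-D1 with 4734 (4678 to 4844). Cd74 was next with 1043 (837.0 to 1274). Tapbp, H2-Aa and H2-Ab1 (means 558.5, 533.6 and 411.7 per kb) followed, where Tapbp overlapped H2-Aa and H2-Aa overlapped H2-Ab1, but the mice of Tapbp (lowest 535.4) did not overlap those of H2-Ab1 (highest 495.3). H2-Eb1 (235.6), Tap1 (136.5) and Tap2 (109.9) came last without overlapping each other. On the same scale Tap1 lay above Tap2 in the NaCl/PBS mice and below it in the other 3 groups, where its means were 62.49 (NaCl/DEX), 67.99 (FeSO4/PBS) and 77.41 (FeSO4/DEX) against 92.39, 115.0 and 125.0 for Tap2. The order in NaCl/PBS mice rests on the lengths used, 3105 bases for Tap1 and 3976 for Tap2. Not divided by length, the mean of Tap1 there was below that of Tap2 (423.9 against 437.0 normalized counts).

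Of the members, 8 sit in the MHC region of chromosome 17 within 1.352 Mb, between positions 34134873 and 35486475 of GRCm39, and B2m lies on chromosome 2 (121977957 to 121983594). The starts of H2-Aa, H2-Ab1, H2-Eb1 and Tap1 are shown here because in these neighbours every NaCl/DEX mouse was below every NaCl/PBS mouse and because they hold the Y box, the letters CTGATTGG or CCAATCAG on the other strand, which is the binding motif of NF-Y (Nfya, Nfyb and Nfyc). Each runs 5′ to 3′ on the gene's own strand from 250 bases before to 50 bases after the start of the canonical transcript in GENCODE vM39, and capitals mark the Y box. The intervals are chr17:34506748-34507047 (minus strand) for H2-Aa, chr17:34481933-34482232 (plus) for H2-Ab1, chr17:34524563-34524862 (plus) for H2-Eb1 and chr17:34406125-34406424 (plus) for Tap1.
H2-Aa: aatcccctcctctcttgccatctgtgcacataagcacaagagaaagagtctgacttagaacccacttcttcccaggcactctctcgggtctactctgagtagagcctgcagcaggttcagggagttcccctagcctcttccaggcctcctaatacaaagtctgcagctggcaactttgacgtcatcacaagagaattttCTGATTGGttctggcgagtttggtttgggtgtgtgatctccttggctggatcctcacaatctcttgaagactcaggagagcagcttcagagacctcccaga
H2-Ab1: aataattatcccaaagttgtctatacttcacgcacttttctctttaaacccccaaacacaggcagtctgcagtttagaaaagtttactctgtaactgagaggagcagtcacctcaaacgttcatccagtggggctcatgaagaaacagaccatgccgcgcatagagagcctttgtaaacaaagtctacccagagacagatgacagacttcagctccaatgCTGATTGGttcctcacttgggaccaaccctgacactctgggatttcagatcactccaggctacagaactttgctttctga
H2-Eb1: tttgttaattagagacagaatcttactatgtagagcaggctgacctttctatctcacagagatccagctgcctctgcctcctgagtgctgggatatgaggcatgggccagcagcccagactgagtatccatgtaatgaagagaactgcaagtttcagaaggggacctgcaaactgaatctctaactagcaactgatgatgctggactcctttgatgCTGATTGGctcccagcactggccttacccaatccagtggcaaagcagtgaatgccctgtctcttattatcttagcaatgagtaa
Tap1: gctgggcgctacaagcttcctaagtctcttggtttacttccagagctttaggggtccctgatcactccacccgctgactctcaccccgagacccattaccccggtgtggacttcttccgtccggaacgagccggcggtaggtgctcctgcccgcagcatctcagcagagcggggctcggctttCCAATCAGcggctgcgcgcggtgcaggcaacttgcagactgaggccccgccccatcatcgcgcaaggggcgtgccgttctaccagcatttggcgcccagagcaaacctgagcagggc

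Counted from the start, the Y box covered bases -51 to -44 in H2-Aa, -30 to -23 in H2-Ab1, -34 to -27 in H2-Eb1 and, on the other strand, -67 to -60 in Tap1. H2-K1, which did not pass the test after DEX, held it too, on the other strand from base 8 to base 15. The motif occurred in 5.02% of the 21757 promoter windows of this length. The windows of the other 5 members did not hold these letters. Among them were Tap2 and Cd74, for which every NaCl/DEX mouse was also below every NaCl/PBS mouse. The starts shown were picked for both traits, so that they share them is no result about the DEX response. For H2-D1, B2m, Tap2 and Tapbp the annotated start of the canonical transcript may not be the main start site, so that their windows may miss the promoter, and nothing is read from the absence of a motif there. Among further motifs searched on both strands, the NF-kB motif GGGNNTTCC (6.25% of windows) was in those of H2-K1, H2-Aa and Cd74. The interferon regulatory factor motif GAAANNGAA (8.78%) and the letters AGAACA (17%) were found in no member's window. AGAACA is a part of the glucocorticoid receptor's binding element and not the whole of it. For H2-D1, B2m, Tap2 and Tapbp this absence says nothing of the promoter. Only exact matches to these strings were searched. A site with other letters would be missed in any window, so their absence does not show that a promoter lacks such sites. The motifs found are matches of letters and not shown binding sites.

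After FeSO4, the class I heavy and light chains were upregulated while Tap1 was downregulated by a factor of 2.00. Comparing FeSO4/PBS with NaCl/PBS mice, 3 of the 10 members were higher (H2-K1, H2-D1 and B2m) and 1 was lower (Tap1) at an adjusted p of 0.05 or less in edgeR's quasi-likelihood test. FeSO4 changed much of the transcriptome, with 27.2% of all genes tested called higher and 27.3% lower, and counts of 3 and 1 in 10 do not set the members apart from them. Every FeSO4/PBS mouse was above every NaCl/PBS mouse in 3 members and below in 1, against 29.0% and 31.0% of all genes. The median LFC was 0.08 over the members and -0.02 over all genes tested.

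H2-K1 stood at 21430, 20211 and 19427 normalized counts in NaCl/PBS livers and at 37769, 34094 and 26727 in FeSO4/PBS livers. Its LFC was 0.69 ± 0.15 (SE), with an adjusted p of 0.00125 in edgeR. H2-D1 had 9911, 10255 and 9903 against 22216, 19013 and 15147, an LFC of 0.91 ± 0.14 (SE, adjusted p = 9.76e-05 in edgeR). For both heavy chains every FeSO4/PBS mouse was above every NaCl/PBS mouse, and the FeSO4/PBS mice were spread more widely. B2m rose less, from 23452, 22187 and 21487 to 31930, 30538 and 26033, an LFC of 0.40 ± 0.13 (SE, adjusted p = 0.022 in edgeR). The groups did not overlap for B2m either, but its call was lost under scaling by library size alone (LFC 0.08, adjusted p = 0.596 in edgeR) and, singly, without either of 2 mice of each group. H2-K1 and H2-D1 kept theirs under library size alone. Mean reads of H2-K1 per read of B2m, a ratio that needs no scaling, went from 0.9096 ± 0.0049 to 1.11 ± 0.078 (SD, n = 3).

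Tap1 dropped from 442.4, 434.8 and 394.4 normalized counts in NaCl/PBS livers to 244.9, 203.5 and 184.9 in FeSO4/PBS livers. The LFC of Tap1 was -1.003 ± 0.14 (SE, adjusted p = 3.3e-05 in edgeR), and every FeSO4/PBS mouse was well below every control. Its partner Tap2 had 458.9, 445.1 and 407.1 against 524.1, 451.7 and 395.3, groups that overlapped fully (LFC 0.07 ± 0.13 SE). Reads of Tap1 per read of Tap2 were 0.9639, 0.9769 and 0.9688 in NaCl/PBS mice and 0.4673, 0.4505 and 0.4677 in FeSO4/PBS mice. Both subunits of the transporter thus stood in a near-constant ratio within each of these groups and in different ratios between them. Tapbp lay between 1453 and 1794 normalized counts in both groups and had an LFC of -0.01 ± 0.10 (SE) that became -0.33 (adjusted p = 0.00992 in edgeR) with library size alone. Reads of H2-D1 per read of Tap1 rose from 22.4 to 25.1 in the NaCl/PBS mice to 81.9 to 93.5 in the FeSO4/PBS mice.

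**Figure D1:**
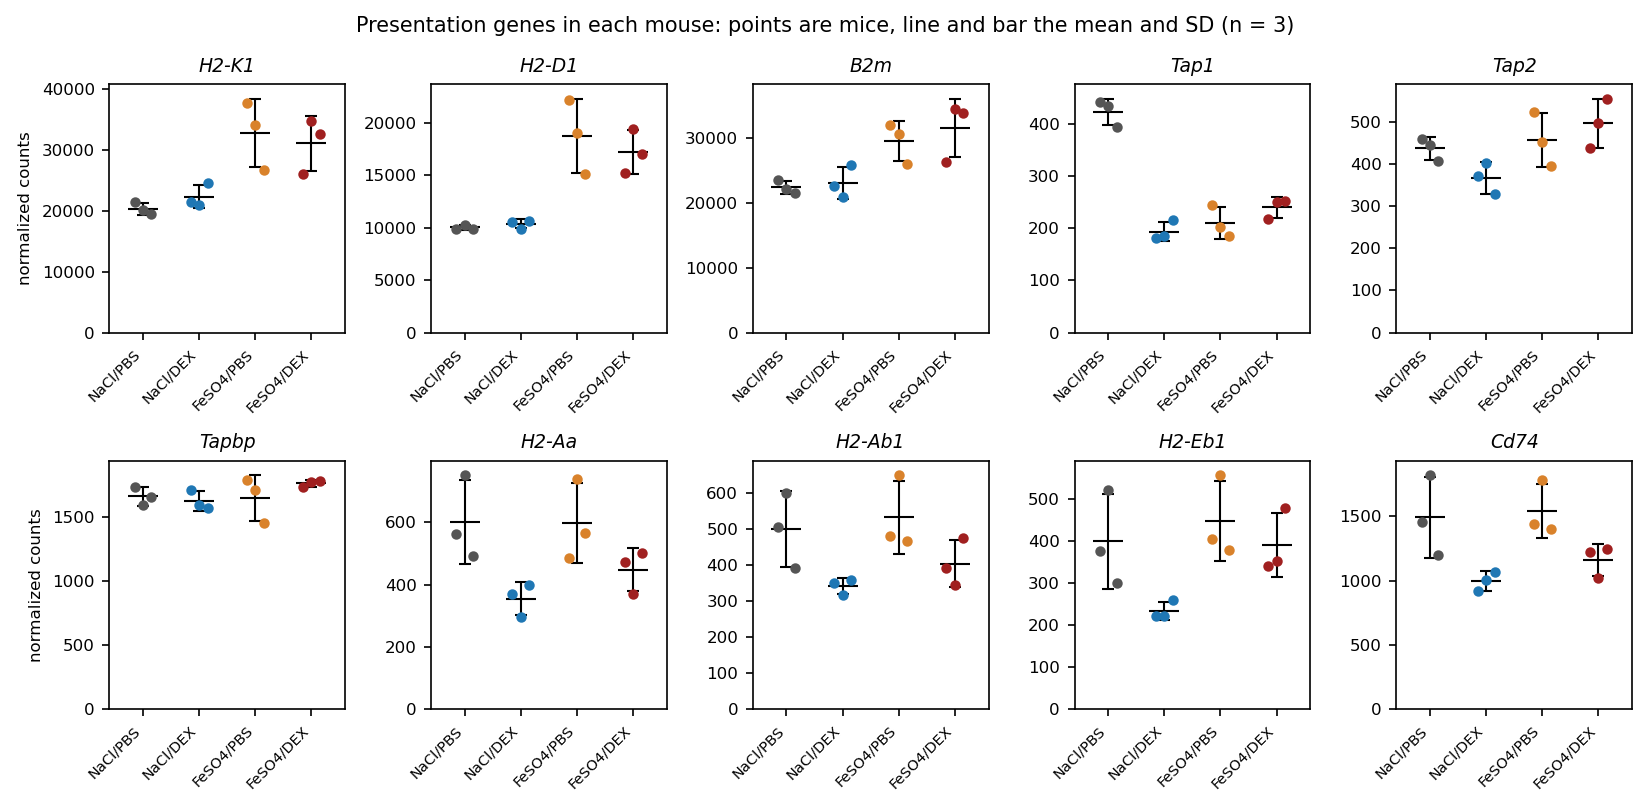
Normalized counts (y axes, linear from 0) of the 10 members in each of the 12 mice, by group. Points are mice, and the line and bar are the mean and SD of 3 mice. H2-K1, H2-D1 and B2m are higher in both FeSO4 groups, Tap1 is lower in all 3 treated groups than in NaCl/PBS mice, and the 4 class II genes are lowest in NaCl/DEX mice.

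No class II member passed the test after FeSO4. H2-Aa stood at 563.9, 751.8 and 490.1 normalized counts in controls and at 486.8, 737.5 and 566.2 after FeSO4. H2-Ab1 had 505.6, 600.3 and 391.1 against 480.8, 649.0 and 465.5. The mice of both groups covered nearly the same range for either chain. H2-Eb1 had 376.2, 522.7 and 300.5 against 405.2, 557.5 and 380.0, and Cd74 had 1458, 1822 and 1198 against 1440, 1787 and 1403. The LFCs lay between -0.01 (SE 0.19, H2-Aa) and 0.17 (SE 0.20, H2-Eb1), with adjusted p from 0.512 to 0.968 in edgeR.

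Markers of the cells that make class II moved in the same comparison, in which 27.3% of all genes were called lower and 27.2% higher. Of 12 Kupffer cell markers, 9 were lower after FeSO4, among them Clec4f, Timd4 and Csf1r, and their summed level went from between 11275 and 13061 normalized counts in NaCl/PBS mice to between 6770 and 7736 in FeSO4/PBS mice. Of 6 dendritic cell markers tested out of 9, 3 were lower (Clec9a, Zbtb46 and Siglech), with sums of 267.6 to 322.5 against 71.4 to 122. Of 6 B cell markers tested out of 8, 3 were lower (Cd79b, Ms4a1 and Cd22), and DESeq2 called 2 lower. Ighm, the most abundant B cell marker, was not called (LFC 0.15). The B cell sums of 119.7 to 377.6 and 149.2 to 198.6 overlapped. Of 10 sinusoidal endothelial markers, 5 were lower and 2 higher, with sums of 9318 to 10598 against 6902 to 9343. Neutrophil markers moved the other way, with 6 of 7 tested higher and sums of 119.3 to 299.2 against 812.4 to 968.6. The summed class II level was 2379 to 3697 in NaCl/PBS and 2813 to 3731 in FeSO4/PBS mice, and the part these cells had in it was not tested.

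**Figure D2:**
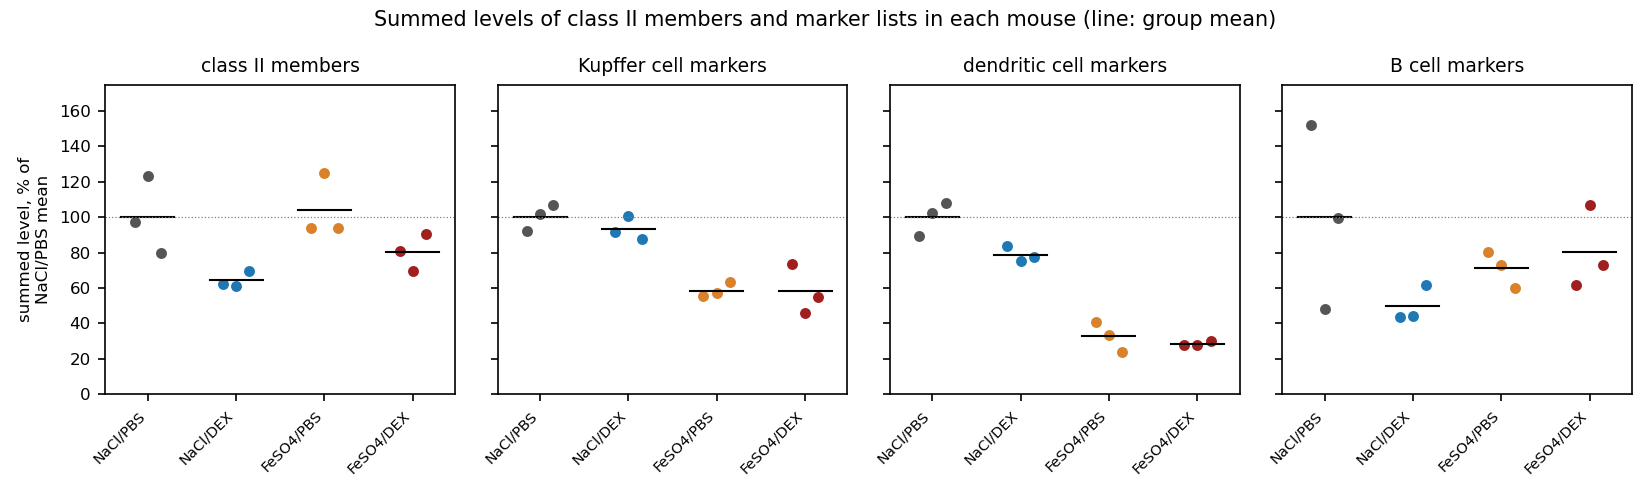
Summed normalized counts of the 4 class II members and of 3 marker lists in each mouse (y axis, percent of the NaCl/PBS mean), with a line at each group mean. The class II sum of the FeSO4/PBS mice lies between 94.0 and 124.7%, where Kupffer cell markers lie between 55.2 and 63.1% and dendritic cell markers between 23.9 and 40.8%. In NaCl/DEX mice the class II sum is at 61.3 to 69.6%, with Kupffer cell markers at 87.5 to 100.4%.

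DEX alone downregulated Tap1 and class II genes while the class I chains H2-K1, H2-D1 and B2m did not pass the test. Comparing NaCl/DEX with NaCl/PBS mice, 4 members were lower (Tap1, H2-Aa, H2-Eb1 and Cd74) and 0 were higher. Of all genes tested, 7.15% were called lower and 6.5% higher, and no member had an LFC above 0 at an unadjusted p under 0.05. DESeq2 called 5 members lower, H2-Ab1 being added, and 0 higher. In 6 members every NaCl/DEX mouse was below every NaCl/PBS mouse, against 20.3% of all genes. The median LFC was -0.40 over the members and -0.02 over all genes tested.

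Tap1 was the most reduced member after DEX, with 181.4, 185.2 and 215.5 normalized counts in the NaCl/DEX mice where the NaCl/PBS mice had between 394.4 and 442.4. The LFC of -1.13 ± 0.14 (SE) had an adjusted p of 8e-05 in edgeR. Tap2 had 371.4, 402.4 and 328.2, just under the lowest control at 407.1, and did not pass the test (LFC -0.25 ± 0.13 SE, adjusted p = 0.254 in edgeR). Reads of Tap1 per read of Tap2 were 0.4884, 0.4603 and 0.6564, all under the NaCl/PBS values. H2-K1 (21478, 21000 and 24611 normalized counts), H2-D1 (10551, 9891 and 10678) and B2m (22593, 20850 and 25742) overlapped their controls, with LFCs of 0.14 ± 0.15, 0.05 ± 0.14 and 0.04 ± 0.13 (SE). Tapbp had an LFC of -0.03 ± 0.10 (SE).

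H2-Aa had 369.3, 295.2 and 398.7 normalized counts in the NaCl/DEX mice, all below the lowest NaCl/PBS mouse at 490.1. The LFC was -0.76 ± 0.19 (SE, adjusted p = 0.0163 in edgeR). H2-Eb1 had 221.1, 221.0 and 258.8 where the lowest control had 300.5, an LFC of -0.77 ± 0.21 (SE, adjusted p = 0.0233 in edgeR). Cd74 had 917.8, 1003 and 1067 where the lowest control had 1198, an LFC of -0.58 ± 0.15 (SE, adjusted p = 0.0197 in edgeR). H2-Ab1, with 348.9, 315.9 and 357.4 against a lowest control of 391.1, missed the threshold (LFC -0.55 ± 0.17 SE, adjusted p = 0.0512 in edgeR). Reads of Cd74 per read of H2-Ab1 had means of 2.99 ± 0.097 in NaCl/PBS and 2.93 ± 0.28 in NaCl/DEX mice (SD, n = 3), so the invariant chain and the beta chain were lower by like amounts.

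The class II genes varied together between mice. NaCl/PBS mouse 2 was the highest of its group for all 4 genes and mouse 3 the lowest. The calls rested on single mice of these groups: without NaCl/PBS mouse 2 only Tap1 was called lower, and H2-Aa then had an LFC of -0.56 (adjusted p = 0.0823 in edgeR), H2-Eb1 of -0.53 (adjusted p = 0.119) and Cd74 of -0.40 (adjusted p = 0.107). Without NaCl/DEX mouse 2 Tap1 was again the only call, and without NaCl/DEX mouse 1 or NaCl/PBS mouse 1 the calls were 2, Tap1 and H2-Aa. Beside this, none of the 12 Kupffer cell markers was called after DEX by edgeR or DESeq2 or had an unadjusted p under 0.05, and their sums were 10726 to 12306. Of the 6 dendritic cell markers tested 1 was lower (Zbtb46) and 0 were higher, beside 7.15% and 6.5% of all genes. The dendritic cell markers had a median LFC of -0.60 and sums of 224.7 to 250.1. They did not move together: Clec9a, not called, had 103.0, 88.4 and 82.6 normalized counts against 49.6, 40.2 and 65.2 in NaCl/PBS mice. Of the 6 B cell markers tested 0 were called by either tool and 4 had an unadjusted p under 0.05, as had 3718 of all 13857 genes. The B cell markers had a median LFC of -1.22 and sums of 107.3 to 153.0. Of 10 sinusoidal endothelial markers, 2 were lower (Kdr, LFC -1.24, and Gpr182, -0.94) and 1 was higher (Lyve1, 1.83), with sums of 7862 to 9476 against 9318 to 10598 in NaCl/PBS mice. In NaCl/PBS mice 1, 2 and 3 the class II sums were 2904, 3697 and 2379, and the B cell sums were 377.6, 119.7 and 247.2. Ighm alone made 182.7, 63.6 and 122.7 of these B cell sums. The part of these cells in the class II levels was not tested.

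**Figure D3:**
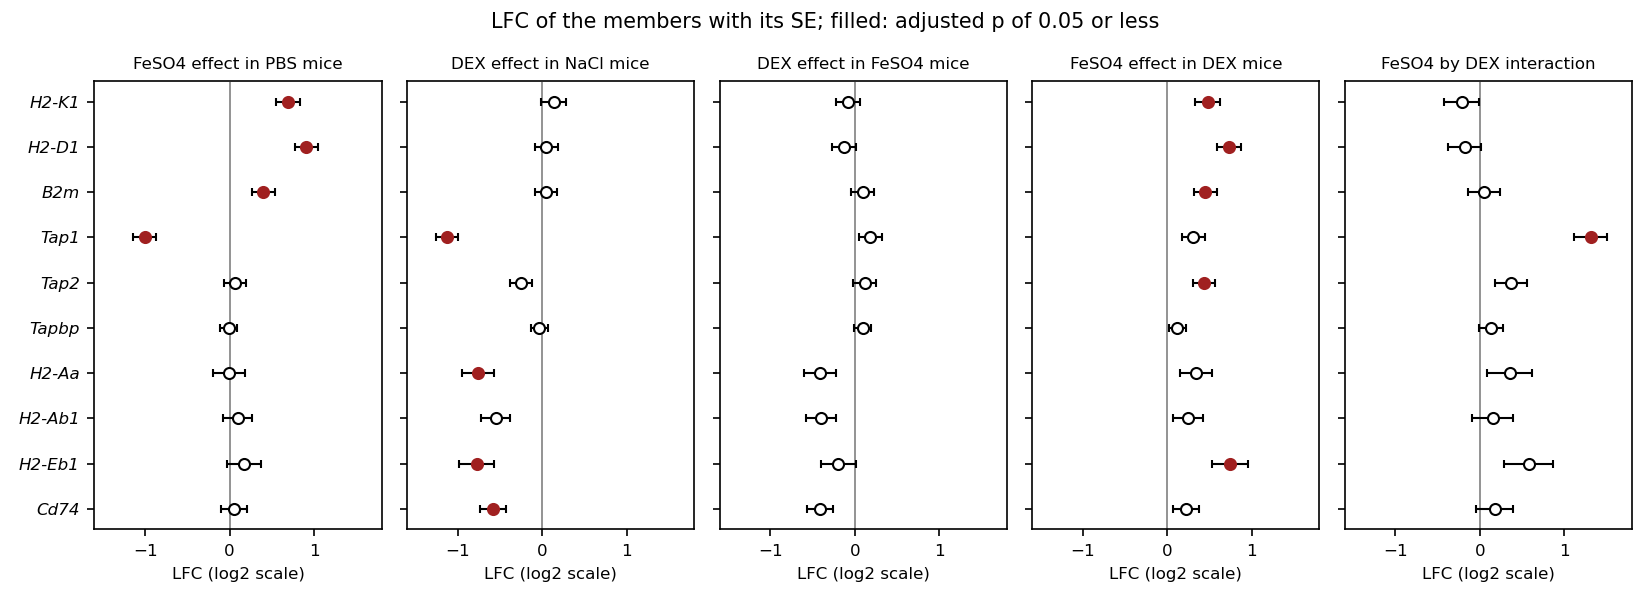
LFC of the 10 members (x axes, log2 scale) with its SE in each of the 4 comparisons and in the FeSO4 by DEX interaction. Filled points passed an adjusted p of 0.05 or less in edgeR. Tap1 is lower after FeSO4 alone and after DEX alone, and is the only filled point in the interaction, at 1.31.

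Under FeSO4, DEX changed no member by the test. Comparing FeSO4/DEX with FeSO4/PBS mice, edgeR called 0 members and 0 of the 13857 genes, or 0% higher and 0% lower. An unadjusted p under 0.05 was reached by 3 members and 900 genes, and DESeq2 called 0 members, 5 genes higher and 4 lower. The 3 members were Cd74 (LFC -0.41 ± 0.15 SE), H2-Ab1 (-0.40 ± 0.17) and H2-Aa (-0.41 ± 0.19). Cd74 had 1220, 1017 and 1248 normalized counts in the FeSO4/DEX mice, all below the lowest FeSO4/PBS mouse at 1403. The same held for 4.85% of all genes. H2-Aa had 473.6, 368.4 and 501.8 and H2-Ab1 had 391.5, 343.9 and 474.4, and both overlapped the FeSO4/PBS mice. Tap1 had 217.5, 251.5 and 252.1, within or just above the FeSO4/PBS range (LFC 0.18 ± 0.14 SE).

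The interaction tests whether the DEX response differed between FeSO4 and NaCl mice, and Tap1 alone of the 10 members passed it. Tap1 was lower by DEX in NaCl mice and not under FeSO4, a difference in LFC of 1.31 ± 0.19 (SE, adjusted p = 0.00131 in edgeR). Of all genes tested 2.99% passed higher and 3.2% lower. Tap1 in fact stood far below the NaCl/PBS mice in all 3 treated groups, with means of 194.0 ± 18.7 for NaCl/DEX, 211.1 ± 30.7 for FeSO4/PBS and 240.3 ± 19.8 for FeSO4/DEX (SD, n = 3), where NaCl/PBS mice had 423.9 ± 25.8. Every FeSO4/DEX mouse was above every NaCl/DEX mouse, as in 28.8% of all genes, but this difference was not called (LFC 0.31 ± 0.14 SE, adjusted p = 0.0881 in edgeR). For the class II genes the difference in LFC was 0.35 ± 0.27 for H2-Aa, 0.15 ± 0.25 for H2-Ab1, 0.58 ± 0.29 for H2-Eb1 and 0.17 ± 0.21 for Cd74 (SE), with adjusted p from 0.285 to 0.786 in edgeR. A loss of their DEX response under FeSO4 was therefore not shown.

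In mice that had received DEX, FeSO4 raised 5 members and lowered 0. Comparing FeSO4/DEX with NaCl/DEX mice, H2-K1, H2-D1, B2m, Tap2 and H2-Eb1 were higher, in a comparison that called 22.4% of all genes higher and 20.9% lower. No member had an LFC below 0 here, and DESeq2 likewise called 5 higher and 0 lower. In 7 members every FeSO4/DEX mouse was above every NaCl/DEX mouse, against 28.8% of all genes. The comparison shares its groups with those above, so it is no separate evidence of them.

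H2-D1 had 15181, 19414 and 17027 normalized counts in FeSO4/DEX mice, an LFC of 0.73 ± 0.14 (SE, adjusted p = 0.000767 in edgeR). H2-K1 had 26008, 34746 and 32574 (LFC 0.48 ± 0.15 SE, adjusted p = 0.0174 in edgeR) and B2m had 26302, 34404 and 33871 (0.45 ± 0.13 SE, adjusted p = 0.0149). FeSO4/DEX mouse 1 was the lowest for these 3 chains and close to the highest NaCl/DEX mouse for H2-K1 and B2m. Tap2 had 437.9, 497.5 and 555.3, an LFC of 0.43 ± 0.13 (SE, adjusted p = 0.0174 in edgeR). With library size alone the calls of H2-K1, B2m and Tap2 were lost (LFCs of 0.28, 0.25 and 0.23). H2-Eb1 had 341.2, 353.4 and 479.2 (LFC 0.74 ± 0.21 SE, adjusted p = 0.0108 in edgeR) and was not called without FeSO4/DEX mouse 3 (LFC 0.54, adjusted p = 0.0746), where H2-D1 was the only member still called higher. Without FeSO4/DEX mouse 2, 2 members were called higher, and without NaCl/DEX mouse 2, 3. H2-Eb1 was the only class II gene called in this comparison. H2-Eb1 reads per H2-Ab1 read were 0.686 ± 0.047 in NaCl/DEX and 0.970 ± 0.085 in FeSO4/DEX mice (SD, n = 3), and did not overlap.

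Of 10 other genes for class I peptide supply and loading, 4 were lower and 0 higher in FeSO4/PBS against NaCl/PBS mice, against 27.3% and 27.2% of all genes. DESeq2 called 3 lower and 0 higher, without Psmb10. Psmb9, an immunoproteasome subunit that lies head to head with Tap1, had 262.5, 310.4 and 307.3 normalized counts in NaCl/PBS mice and 173.4, 132.2 and 102.0 after FeSO4. The LFC was -1.10 ± 0.24 (SE, adjusted p = 0.0014 in edgeR), with no overlap between the groups. The others were the tapasin-related Tapbpl (-0.65), the immunoproteasome subunit Psmb10 (-0.36) and the peptide trimmer Erap1 (-0.27), each of which lost its call without FeSO4/PBS mouse 3 and without some of the other mice. Erap1 was also lost with a replicate block (adjusted p = 0.0585 in edgeR). After DEX in NaCl mice 0 of the 10 were called by edgeR or DESeq2. An unadjusted p under 0.05 was reached by 1, Psmb9 (LFC -0.59 ± 0.23 SE), and by 3718 of all 13857 genes tested. Reads of Tap1 per read of Psmb9 went from 1.46 ± 0.21 in controls to 0.997 ± 0.027 after DEX and 1.59 ± 0.20 after FeSO4 (SD, n = 3).

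Among 10 other class I molecules, 4 were higher and 2 lower after FeSO4, beside 27.2% and 27.3% of all genes. H2-Q6 (LFC 0.81) and H2-Q7 (0.74), like H2-Q4 (0.72) and the secreted liver molecule H2-Q10 (0.36), moved in the direction of H2-K1 and H2-D1. H2-Q7 and H2-Q10 lost their calls with library size alone (LFCs of 0.41 and 0.04) and without FeSO4/PBS mouse 1 (0.51 and 0.29), among other mice. H2-T24 (-2.50), from 92.8, 83.2 and 105.8 normalized counts to 10.1, 17.3 and 22.96, and H2-M3 (-1.04), which presents formylated peptides, were lower. After DEX in NaCl mice 1 of the 10 was lower (H2-Q4, LFC -0.58), a call lost without NaCl/DEX mouse 2 (-0.51) or NaCl/PBS mouse 1 (-0.54). Of 9 class II loading and processing genes tested, 1 was called after FeSO4, the lysosomal protease Ctsl (LFC 1.90). In NaCl mice given DEX, 0 were called by edgeR and 1 by DESeq2. An unadjusted p under 0.05 was reached by 5, and by 3718 of all 13857 genes tested.

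Of 16 known regulators of these genes, 5 were higher and 5 lower after FeSO4, near the 27.2% and 27.3% of all genes. After DEX in NaCl mice 6 were lower and 0 higher, beside 7.15% and 6.5% of all genes (DESeq2 called the same numbers in both comparisons). Nlrc5, the transactivator of class I genes, had 569.7, 672.3 and 573.9 normalized counts in controls and 362.8, 398.7 and 302.0 after DEX alone. After FeSO4 it had 936.4, 1088 and 1122 without DEX and 1142, 1518 and 1326 with DEX. It was lower after DEX alone (LFC -0.77, adjusted p = 0.00187 in edgeR), higher after FeSO4 (0.79, adjusted p = 0.000241), and its DEX response differed between NaCl and FeSO4 mice (difference in LFC 1.11, adjusted p = 0.00382). Nlrc5 was thus high in the FeSO4 groups, where H2-K1, H2-D1 and B2m were high and Tap1 low. After DEX alone Nlrc5 was low, where Tap1 was low and H2-K1, H2-D1 and B2m were not called (LFCs of 0.14, 0.05 and 0.04). The part of Nlrc5 in these levels was not tested.

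Irf1, an interferon-induced activator of antigen presentation genes, had 933.6, 1060 and 781.3 normalized counts in NaCl/PBS mice and 141.7, 135.4 and 144.0 after DEX alone. It had 340.7, 210.6 and 205.3 after FeSO4 and 126.6, 171.3 and 123.7 after both. All 9 treated mice were below the 3 NaCl/PBS mice, as they were for Tap1, Psmb9, Rfx5 and Ciita. For all genes this was counted 1 comparison at a time, with 31.0% below after FeSO4 and 20.3% after DEX alone. A link between Irf1 and Tap1 was not tested. The LFC of Irf1 was -2.72 ± 0.20 after DEX (SE, adjusted p = 1.3e-06 in edgeR) and -1.87 ± 0.19 after FeSO4 (adjusted p = 2.83e-06), and the difference between its DEX responses was 1.87 (adjusted p = 0.00146). Ciita, the master regulator of class II genes, had 36.0, 31.8 and 35.6 normalized counts in controls and 12.9, 10.3 and 5.03 after DEX alone. It had 6.05, 11.2 and 7.65 after FeSO4 and 3.87, 2.72 and 1.19 after both. It was thus lower after FeSO4 (LFC -2.03 ± 0.41 SE, adjusted p = 0.00092 in edgeR), where no class II gene was called, as well as after DEX (-1.86 ± 0.40 SE, adjusted p = 0.00684), where H2-Aa, H2-Eb1 and Cd74 were.

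**Figure D4:**
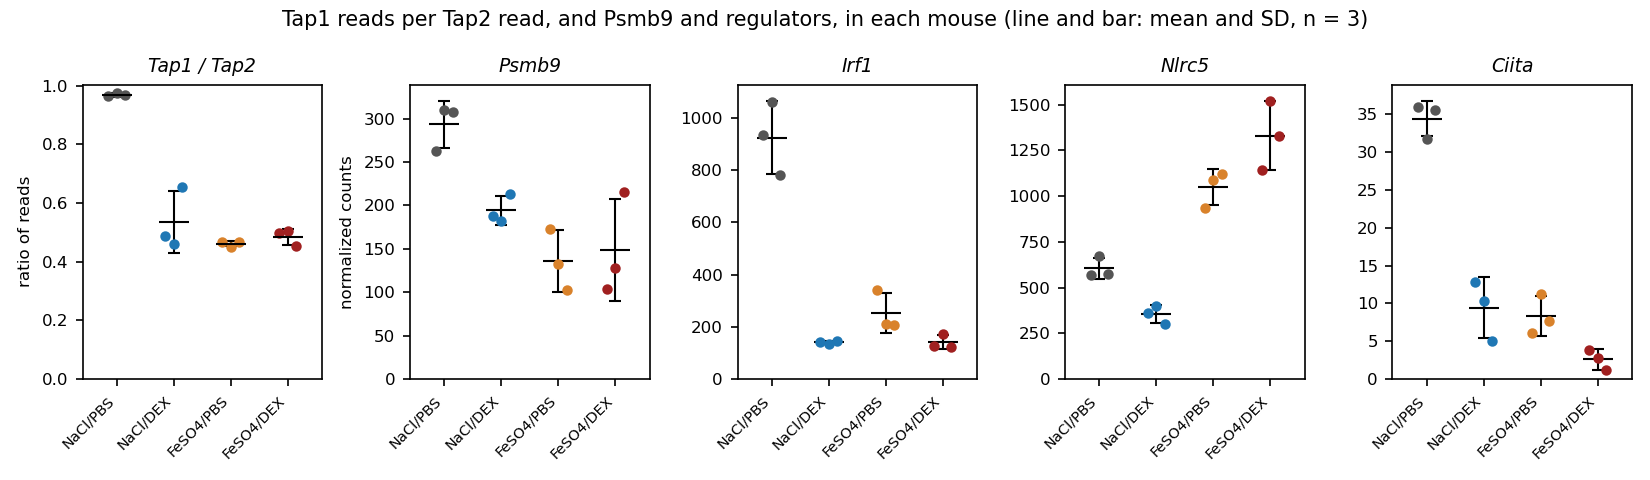
Reads of Tap1 per read of Tap2, and normalized counts of Psmb9 and of the regulators Irf1, Nlrc5 and Ciita in each mouse (y axes, linear from 0). Points are mice, and the line and bar are the mean and SD of 3 mice. The Tap1 to Tap2 ratio is near 0.97 in NaCl/PBS mice and at most 0.656 in any treated mouse, Irf1 and Ciita are lower in all 3 treated groups, and Nlrc5 is high in both FeSO4 groups.

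Of the other regulators called after FeSO4, Rfxank (LFC 1.46), Jak1 (0.67), Nfyc (0.56) and Ifngr1 (0.42) were higher and Rfx5 (-0.80) and Nfya (-0.75) lower. Rfx5, which with Rfxank forms part of the complex that binds class II promoters, was also lower after DEX in NaCl mice (-1.10), as were Nfyb (-0.63) and Irf8 (-0.58). These 3 lost their DEX calls without NaCl/DEX mouse 2 or NaCl/PBS mouse 1, and Rfx5 its FeSO4 call without FeSO4/PBS mouse 1 (-0.47) or NaCl/PBS mouse 1 (-0.63). Nfyb also lost its DEX call without NaCl/DEX mouse 1 or NaCl/PBS mouse 2. The Irf8 call was the weakest, lost without any single NaCl mouse and with a replicate block (adjusted p = 0.0716 in edgeR). It was also lost with DESeq2's size factors (adjusted p = 0.0512 in edgeR) and with no filter on low counts (0.0536). Among 5 co-stimulatory or inhibitory surface molecules, Cd40 (-1.99) and Cd86 (-1.11) were lower after FeSO4, Cd40 not without NaCl/PBS mouse 2 (-1.35) or FeSO4/PBS mouse 1 (-1.63) or 3 (-1.92), and Cd274, the ligand of the T cell checkpoint receptor PD-1, was lower after DEX in NaCl mice (-2.65, adjusted p = 2.04e-05 in edgeR). The DEX response of Cd274 also differed between NaCl and FeSO4 mice (difference in LFC 2.37, adjusted p = 0.00155 in edgeR). The values of Jak1, Nfyc, Ifngr1, Nfya, Rfx5, Nfyb, Irf8, Cd274, H2-Q4 and H2-Q10, and of the markers named, were known when these genes were picked for naming.

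The genes whose levels followed H2-K1 most closely over the 12 mice were Rpl17, Pgam1 and Cox6b1. Their distance from H2-K1, the root mean square difference of centred log2 levels, was 0.063, 0.082 and 0.088, against a median of 0.515 over the 12761 genes compared. These were nearer than B2m (0.113) and H2-D1 (0.136), and Tap1 was at 0.653. For H2-Aa the nearest genes were Gpx6 (0.199), Zfp72 (0.204) and Pitpnm1 (0.210), while the other class II members were nearer or like them, with 0.124 for H2-Ab1, 0.139 for Cd74 and 0.215 for H2-Eb1. All points share the same 12 libraries and their scaling, and the distances are a description.

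Reads of some members can be shared with other genes. In the reference 4.61% of the 100-base windows of the H2-D1 mRNA matched a transcript of another gene exactly, most often of H2-Q1, as did 0.104% of those of Tapbp and none of the other 8 members. STAR counts only reads with a single best place, so reads from such windows are lost rather than given to the other gene. On the opposite strand, long noncoding RNAs overlapped 26.8% of the exon length of H2-K1 (Gm53999), 25.6% of that of Tapbp (Gm19412), 24.2% of that of H2-D1 (5430410E06Rik) and 11.2% of that of Tap2 (Gm15821). Psmb9 overlapped 12.4% of that of Tap1, and H2-Aa and H2-Eb1 overlapped each other over 118 bases. Exons of Tapbp overlapped those of Zbtb22 on the same strand over 20.9%. Which strand setting was used in counting is not given in the sources used here, so reads in these overlaps are uncertain.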

How the data were processed

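The RNAseq data cover the livers of 12 mice, 3 in each of 4 groups taken from the sample labels. According to the study's methods and the labels, the authors made stranded mRNA libraries, sequenced single-end reads of 100 cycles, ran FastQC, aligned to mm39 with STAR 2.7.10b and let STAR count uniquely mapped reads per gene. The authors deposited raw whole-number counts of 55414 Ensembl genes, of which 30401 were at 0 in all 12 mice. Symbols, gene positions and transcripts came from GENCODE vM39 on GRCm39, which matched 54749 genes, whereas the authors used an earlier annotation.

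All libraries entered 1 model of the 4 group means, fitted by quasi-likelihood in edgeR 4.0.16 (R 4.3.3, limma 3.58.1), after edgeR's filter on low counts (13857 genes kept) and TMM scaling. LFCs used a prior count of 0.125, and the SE is the LFC divided by the root of the F statistic. A call was an adjusted p (Benjamini-Hochberg) of at most 0.05 over all genes tested, with no minimum LFC. The biological coefficient of variation was 0.169, and tests are two-sided. Mice of the same group differed by a chi-square of 18.3 to 89.5 per gene, far beyond sampling noise, so each library was counted as 1 mouse, and p-values measure the spread between these mice. At these depths, group size (n = 3) limits the precision.

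Alternatives were DESeq2 1.42.0, edgeR with DESeq2's size factors or with library size alone, testing without the filter or with a minimum of 10 counts per library, a replicate block, the libraries of a comparison alone, an LFC beyond 1, and each mouse left out in turn. The members and gene lists were chosen with earlier results of these data known. Named were the 10 members, Nlrc5, Ciita and Irf1, up to 4 genes per pathway list with the largest LFC among those called after FeSO4 in PBS mice, and the 3 genes nearest to H2-K1 and to H2-Aa without Rik and Gm genes. Of the 132 genes of the lists, 131 were matched by symbol. The regulator counts include 1 gene whose values are not reported here. Python 3.11.15 with pandas 2.3.3, numpy 2.4.6 and matplotlib 3.10.9 served for tables and plots.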

Additional observations from a re-analysis of the deposited data

Results flagged for a closer look

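For 4 genes the DEX response differed between FeSO4 and NaCl mice in the test of that difference itself, edgeR's interaction contrast. The difference in LFC, the response in FeSO4 mice minus that in NaCl mice, was 1.31 for Tap1, 1.11 for Nlrc5, 1.87 for Irf1 and 2.37 for Cd274. In each of the 4 the LFC after DEX was below 0 and passed the test in NaCl mice (-1.13, -0.77, -2.72 and -2.65), and did not pass in FeSO4 mice. Tap1 and Irf1 were already low after FeSO4 alone, with LFCs of -1.003 and -1.87, whereas Nlrc5 was high (0.79) and Cd274 was not called (-0.50, adjusted p = 0.0858 in edgeR). Of all genes tested, 2.99% passed in this direction and 3.2% in the other. The cause was not tested.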

How the results depend on the processing

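No LFC of a member changed sign where it was called. Over all comparisons and alternatives, 901 values of members stayed on their side of the threshold, 29 fell short of it and 10 newly passed it. Tap1 kept its calls after FeSO4, after DEX and in the interaction under every alternative run. Requiring an LFC beyond 1 left 0 members higher after FeSO4 in PBS mice and 0 in DEX mice, and 1 lower after DEX, since few members changed that far. With library size alone 2 members were lower after FeSO4 in PBS mice, Tapbp being added, and 2 were higher in DEX mice, in keeping with the shift of the median LFC that this scaling brings. Leaving out 1 mouse at a time gave 2 to 3 members higher and 1 lower after FeSO4 in PBS mice, 1 to 5 lower after DEX in NaCl mice and 1 to 5 higher after FeSO4 in DEX mice. H2-Ab1 after DEX in NaCl mice passed with DESeq2 (LFC -0.52, adjusted p = 0.0455) and with 4 of the other settings and so lies at the threshold. The deviations of same-numbered mice had correlations of -0.092 to 0.129 over 18 pairs, with a median of -0.003. The 2 over 0.1 were both between NaCl/DEX and NaCl/PBS mice (0.129 and 0.109), where the remaining pair had 0.052. A pairing by number was thus not shown, though with n = 3 a group a weak one could be missed. With the replicate block, 3 members were higher and 1 lower after FeSO4 in PBS mice and no count of members moved by over 1.5 times. For all genes, DEX under FeSO4 gave 0 calls, against 99 higher and 71 lower with no filter on low counts, where Irf1 was among the lower (LFC -0.86, adjusted p = 0.00021 in edgeR), and the interaction gave 414 higher and 443 lower calls against 683 and 776 with no filter and 523 and 735 with DESeq2.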
